A study of Homo sapiens with 24 samples.

Results

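The P2X receptor genes analysed here were P2RX2, P2RX3, P2RX4, P2RX5, P2RX6 and P2RX7, taken by symbol from the deposited count table as 6 of its 36468 rows. Each symbol had its own row, and all 6 genes passed the filter of at least 10 counts over all libraries. P2RX1, which was not a member, had between 0 and 4 counts per library and was at 0 in 17 of 24. P2RX5 overlaps the readthrough gene P2RX5-TAX1BP3 and ITGAE, P2RX6 overlaps THAP7-AS1 and TUBA3FP, and P2RX7 overlaps LOC105370032. How reads in these overlaps were assigned is not given in the sources used here, so the counts of those 3 genes are less certain.

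The cultures came from the human embryonic stem cell line H9WAO9, labelled as wild type, which was taken through vagal neural crest spheroids to sensory neurons. Each of 6 batches gave 1 polyA RNA-seq library per group, 24 in all. The groups were Vehicle (bovine serum albumin in saline), TGF-β at 2 ng/ml, IL-4 at 10 ng/ml with IL-13 at 3 ng/ml, and IL-6, each vehicle, TGF-β or IL-4+IL-13 exposure lasting 5 days. The IL-6 dose and exposure were not given in the sources used here, and all libraries share 1 cell line. Neurons were a minority of the cells by the study's own flow cytometry. A lower level in such a bulk library can be fewer cells of a type or less RNA per cell, and these cannot be told apart.

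P2X receptors are ATP-gated cation channels built of 3 subunits, which open when ATP released by stressed or damaged cells binds outside the membrane. P2RX3, alone or together with P2RX2, carries the ATP response of airway and visceral sensory neurons, and it is the target of antagonists tested in chronic cough. P2RX4 and P2RX7 are best known from macrophages, microglia and glia, P2RX5 is found in sensory neurons and muscle, and the P2RX6 protein forms channels poorly by itself.

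Promoter sequences for 3 of the 6 genes were in the RefSeq table (GRCh38.p14) and are printed because P2RX3 was lowest and P2RX4 highest in batches 1 and 6, while P2RX7 lies directly beside P2RX4. P2RX7 (chromosome 12, 121132876 to 121188032) ends 22096 bases before P2RX4 (121210129 to 121234106) with no other annotated gene between them. P2RX3 spans 57335950 to 57372396 on chromosome 11. Each sequence is the 250 bases before a transcript start on the plus strand. For P2RX7 and P2RX4 that is the start of the gene span, and for P2RX3 it is position 57338352, inside the span. Capitals mark CG dinucleotides.
P2RX3, chr11:57338102-57338351: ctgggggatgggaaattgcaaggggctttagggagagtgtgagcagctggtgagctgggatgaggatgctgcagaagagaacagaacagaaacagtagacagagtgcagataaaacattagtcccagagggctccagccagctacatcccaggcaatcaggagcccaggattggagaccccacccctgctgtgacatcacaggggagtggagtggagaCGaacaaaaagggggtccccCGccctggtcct
P2RX7, chr12:121132626-121132875: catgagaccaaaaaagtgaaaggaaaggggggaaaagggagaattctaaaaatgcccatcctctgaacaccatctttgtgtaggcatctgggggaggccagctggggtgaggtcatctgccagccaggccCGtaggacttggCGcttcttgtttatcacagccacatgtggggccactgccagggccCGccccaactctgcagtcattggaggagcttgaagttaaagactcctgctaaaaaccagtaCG
P2RX4, chr12:121209879-121210128: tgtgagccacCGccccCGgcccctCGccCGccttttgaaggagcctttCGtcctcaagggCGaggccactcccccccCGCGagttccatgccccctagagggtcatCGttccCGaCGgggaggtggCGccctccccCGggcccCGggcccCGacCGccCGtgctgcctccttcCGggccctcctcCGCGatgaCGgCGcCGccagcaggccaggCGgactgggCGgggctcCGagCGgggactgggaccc
The P2RX4 window held 27 CG dinucleotides at 76.0% G+C, more CG than 82.3% of the 35116 promoters in the table. The P2RX7 window held 4 at 53.2% G+C and the P2RX3 window 2 at 56.4%, against a median of 11 CG and 58.0% over all promoters.

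Libraries held between 33342682 and 39817784 counts. Levels are given as TMM CPM, the counts scaled to a common library size with edgeR's trimmed-mean factors. All 12 neuron markers and all 10 sensory neuron markers were detected in every library. Of the glial list SOX10 stayed between 0.0769 and 0.671 CPM, and of the myeloid list CX3CR1 did not exceed 0.547 CPM and ITGAM 0.381 CPM. Libraries were compared over 16900 genes by r of log2(CPM + 1) after each treatment group's mean was taken out of every gene. On this scale libraries of the same batch correlated at a median r of 0.73 and libraries of different batches at -0.19. Taking out group means itself pushes r between libraries of the same group below 0. These values therefore compare departures from the group mean and not whole transcriptomes. The Vehicle library of batch 2 stood apart from this, with a mean r of -0.0010 to its own batch and 0.58 to batch 4, and the Vehicle library of batch 4 correlated at 0.18 with its own batch and 0.51 with batch 2. Each of these 2 libraries thus resembled the other's batch more than its own. The other batch 4 libraries were nearer to batch 3 than to their own batch. Their mean r was 0.72 against 0.51 for TGF-β, 0.56 against 0.54 for IL-6 and 0.65 against 0.42 for IL-4+IL-13. Whether the batch labels of the 2 Vehicle libraries are crossed was not tested. If they are, the within-batch differences from Vehicle in batches 2 and 4 pair the wrong libraries. Fold changes that rest on these 2 Vehicle libraries are also given without them.

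P2RX3 was the most highly expressed member in the untreated cultures when levels were set per kilobase of annotated exon. In the 6 Vehicle libraries it reached 19.8 ± 11.2 CPM per kb (SD, n = 6), followed by P2RX5 at 3.51 ± 2.15, P2RX4 at 1.08 ± 0.232, P2RX6 at 0.982 ± 0.239, P2RX2 at 0.457 ± 0.156 and P2RX7 at 0.323 ± 0.367. P2RX3 exceeded P2RX5 in 6 of 6 libraries by a log2 ratio of 2.43 ± 0.56 (SD), and P2RX6 exceeded P2RX2 in 6 of 6 by 1.14 ± 0.45. Both gave an exact two-sided sign-flip p of 0.0312, the smallest that 6 libraries allow, and 0.0781 after Benjamini-Hochberg adjustment over the 5 neighbouring pairs. P2RX5 exceeded P2RX4 in 5 of 6 libraries (exact adjusted p = 0.104) and P2RX2 exceeded P2RX7 in 5 of 6 (exact adjusted p = 0.234). P2RX4 and P2RX6 lay within their spread of each other, with a log2 ratio of 0.15 ± 0.50 and an exact adjusted p of 0.50. No neighbouring pair therefore differed past the adjusted threshold of 0.05. Since 2 pairs at the smallest possible p gave only 0.0781 after adjustment, neither could have passed without further pairs at that p. The order itself was taken from these same libraries.

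**Figure D1:**
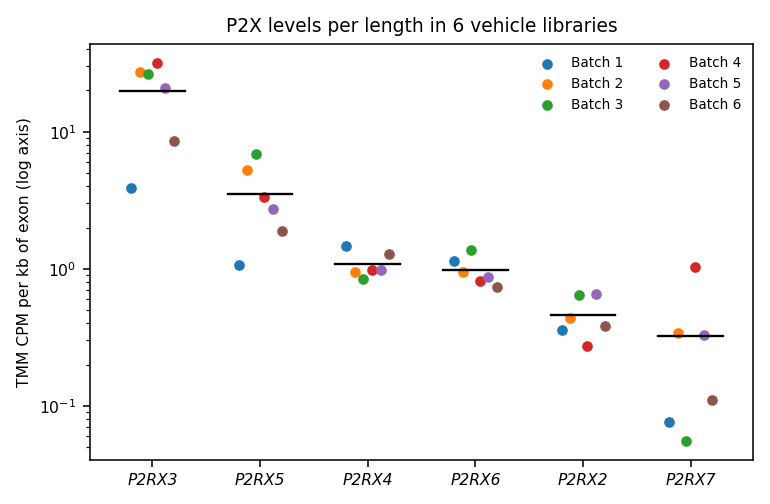
Level of each P2X gene in the 6 Vehicle libraries, in TMM CPM per kilobase of annotated exon on a log axis, with 1 coloured point per batch and a line at the mean. P2RX3 lies highest in every batch, while the P2RX7 points spread from 0.0557 to 1.03.

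Batch separated the libraries more than treatment did for each of the 6 genes. All 6 differed between batches in edgeR's quasi-likelihood test at an adjusted p under 0.05, where 56.8% of the 29377 genes tested did so, and DESeq2 also called all 6, beside 61.1% of the genes. The edgeR adjusted p was 5.99e-06 for P2RX3, 1.04e-05 for P2RX5, 9.25e-04 for P2RX6, 0.00265 for P2RX2, 0.00655 for P2RX4 and 0.0135 for P2RX7. Batch took 87.0% of the sum of squares of log2(CPM + 1) for P2RX3 and 84.1% for P2RX5, and treatment 1.88% and 2.28%. For P2RX7 the share of batch was 46.5%, that of treatment 10.9% and the remainder 42.6%, the largest remainder of the 6. The P2RX7 call was lost without batch 1 (edgeR adjusted p = 0.0779), without batch 2 (0.0732), without batch 3 (0.0527) and in the fit of 18 libraries without IL-6 (0.0899), and the P2RX2 call without batch 5 (0.0714).

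P2RX3 averaged 146 CPM in batch 4, 127 in batch 2, 122 in batch 3 and 97.7 in batch 5, against 43.2 in batch 6 and 33.8 in batch 1. Grouped by these same values, the 4 high batches did not overlap with the 2 low ones in any library, which is a description and not a test. P2RX5 ranged from a batch mean of 3.596 CPM in batch 1 to 26.3 in batch 3, a ratio of 7.30. P2RX4 had the narrowest range, from 6.85 CPM in batch 3 to 10.2 in batch 1, a ratio of 1.49.

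The batches were set beside a panel of 12 general neuron markers, among them TUBB3, UCHL1, STMN2 and PRPH. By the panel's mean log2(CPM + 1), batch 3 was highest at 9.47, followed by batch 4 at 9.30, batch 5 at 8.81, batch 2 at 8.69, batch 6 at 8.25 and batch 1 at 7.19. The batch means of P2RX5 fell in this same order, from 26.3 through 20.7, 13.98, 9.50 and 7.11 to 3.596 CPM. The batch 2 mean of 9.50 rested on its Vehicle library, at 21.02 CPM against 4.23 to 6.60 in the rest of the batch. By medians, batch 2 lay below batch 6 for P2RX5, at 6.37 against 7.29 CPM. The batch means of P2RX4 ran in the reverse of the panel's order, from 6.85 through 7.39, 7.87, 8.65 and 9.83 to 10.2 CPM. Its medians did not, with batch 4 at 7.95 CPM above batch 5 at 7.75. The batch 4 mean of P2RX4 included the TGF-β library at 5.44 CPM, against 7.82 to 8.23 in the rest of the batch. P2RX3 kept batches 6 and 1 lowest but had batch 2 second, and P2RX6 was lowest in batch 2 at 2.42 CPM. P2RX7 followed another order, with 2.39 CPM in batch 4, 2.38 in batch 2, 0.497 in batch 1 and 0.467 in batch 3. Its batch 4 mean included the Vehicle library at 5.69 CPM, and the median there was 1.86 against 2.40 in batch 2. These orders are descriptions over 6 batches of 1 line, and the part of neuron content in them was not tested.

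**Figure D2:**
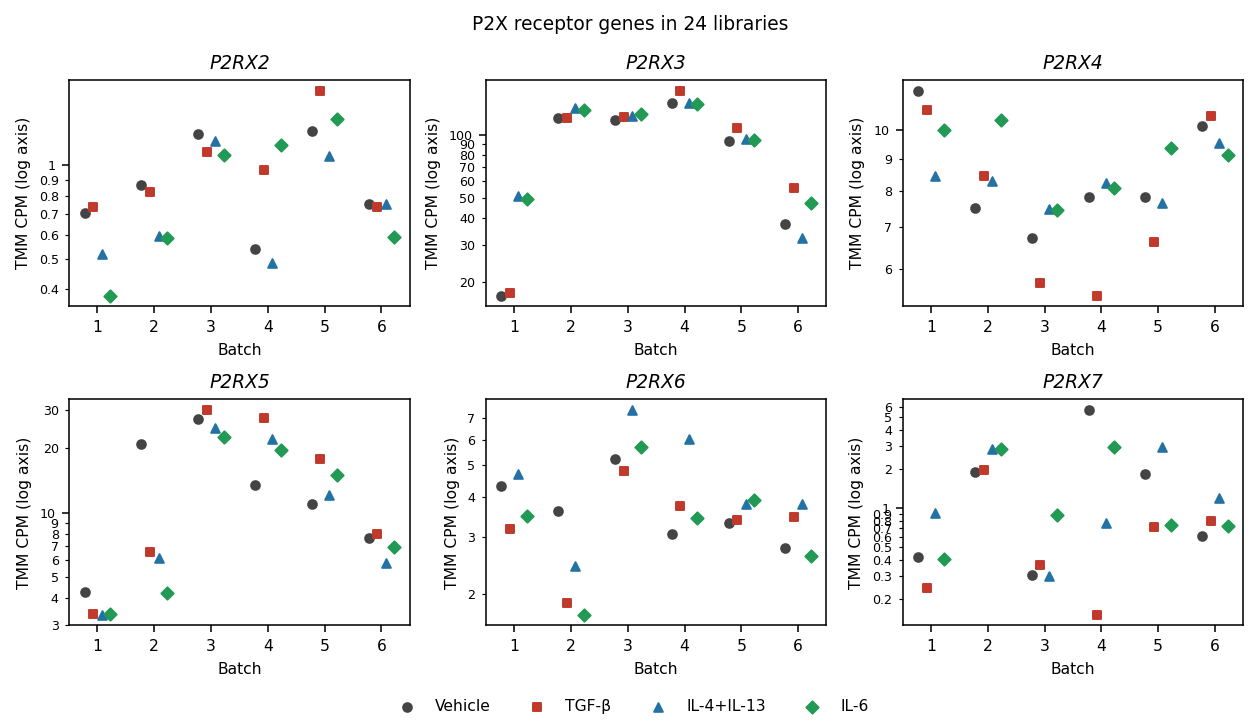
TMM CPM (log axis) of each P2X gene by batch in all 24 libraries, with 1 symbol per treatment group. P2RX3 libraries cluster by batch except in batch 1, where IL-4+IL-13 (51.0) and IL-6 (49.4) lie above Vehicle (17.1) and TGF-β (17.6).

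None of the 6 P2X genes was called for TGF-β against Vehicle (edgeR, adjusted p under 0.05), where 0.347% of genes were. None was called for IL-4+IL-13 against Vehicle, where 0.633% were, or for IL-6 against Vehicle, where 0% were. At an unadjusted p under 0.05 the count was also 0 of 6 in each of these comparisons, and DESeq2 called 0 of 6 in each, where it called 1.72% of genes for TGF-β, 0.449% for IL-6 and 1.95% for IL-4+IL-13. Over all genes IL-6 gave 0 edgeR calls, 1400 genes at an unadjusted p under 0.05 and 132 DESeq2 calls. The median log2 fold change over the 6 members was -0.12 for TGF-β, -0.11 for IL-6 and 0.0096 for IL-4+IL-13, beside -0.012, -0.013 and -0.0077 over all genes tested. The comparisons with Vehicle share the same control libraries.

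P2RX3, the main ATP receptor subunit of cough-related neurons, had 17.1, 105 and 141 CPM as the lowest, median and highest Vehicle library. The same values were 17.6, 114 and 162 under TGF-β, 47.1, 109.9 and 140.4 under IL-6, and 32.2, 109 and 142 under IL-4+IL-13. Ranges of all 4 groups overlapped, with the lowest library of each group in batch 1 or 6. Within batches, TGF-β lay above Vehicle in 6 of 6, but by a ratio of only 1.03, 1.00 and 1.03 in batches 1 to 3 and of 1.15, 1.16 and 1.47 in batches 4 to 6. The edgeR log2 fold change was 0.20 with a 95% interval of -0.24 to 0.63 (adjusted p = 0.949). For IL-4+IL-13 it was 0.27 (-0.17 to 0.71, adjusted p = 0.748) and for IL-6 0.33 (-0.11 to 0.77, adjusted p = 0.850). Both of these rested on batch 1, where the treated libraries stood at 2.98 and 2.89 times Vehicle. Without batch 1 the log2 fold changes were 0.020 and 0.11, and the other 5 batches gave ratios of 0.854 to 1.11 for IL-4+IL-13 and of 0.995 to 1.25 for IL-6.

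In those 2 libraries of batch 1 the neuron panel was also higher, at 7.59 under IL-4+IL-13 and 7.36 under IL-6, against 6.95 in Vehicle and 6.85 under TGF-β. P2RX3 was therefore also set against the panel within each library, as log2(CPM + 1) of P2RX3 minus the panel mean. The within-batch difference of this ratio was 0.16 ± 0.37 (SD, 6 batches) for TGF-β, 0.38 ± 0.48 for IL-6 and 0.28 ± 0.46 for IL-4+IL-13 against Vehicle, and -0.12 ± 0.37 for TGF-β against IL-4+IL-13. The exact sign-flip p values, two-sided and adjusted over the 4 comparisons, were 0.458, 0.458, 0.458 and 0.531. Without batch 2 the differences from Vehicle were 0.043 for TGF-β, 0.29 for IL-6 and 0.17 for IL-4+IL-13. With the Vehicle libraries of batches 2 and 4 both left out, over 4 batches, they were 0.13, 0.39 and 0.27. In batch 2 the ratio was -2.31 in Vehicle against -1.56 under TGF-β, -1.45 under IL-6 and -1.47 under IL-4+IL-13. There P2RX3 itself differed little (121 to 134 CPM) and the panel was higher in Vehicle (9.24 against 8.48 to 8.55).

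**Figure D3:**
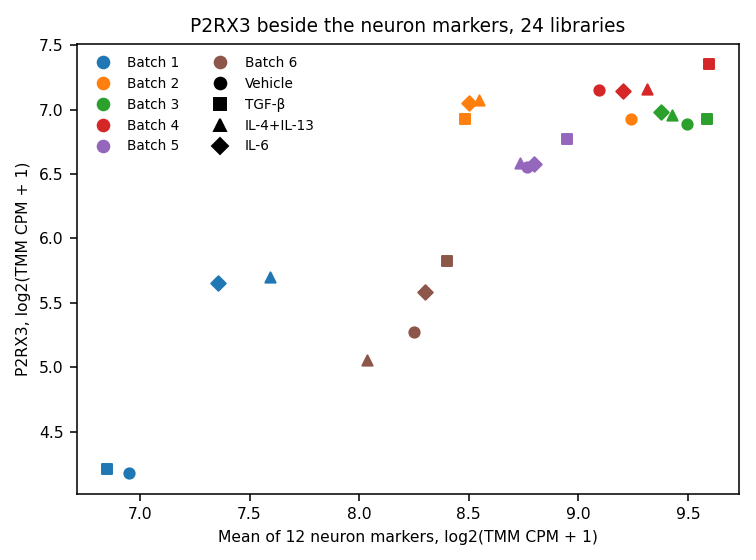
P2RX3 against the mean of 12 neuron markers, both as log2(TMM CPM + 1), in 24 libraries, with colours for batches and symbols for treatments. Batch 1 libraries lie lowest on the neuron marker axis. On the P2RX3 axis the batch 1 Vehicle (4.18) and TGF-β (4.21) libraries lie lowest. The batch 1 IL-6 (5.66) and IL-4+IL-13 (5.70) libraries lie within the batch 6 range of 5.05 to 5.82. The batch 2 Vehicle library lies to the right of the other libraries of its batch.

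P2RX2, the partner subunit of P2RX3, was low, with 13 to 61 counts per library. Its lowest, median and highest CPM were 0.538, 0.809 and 1.29 in Vehicle, 0.733, 0.894 and 1.74 under TGF-β, 0.381, 0.836 and 1.41 under IL-6, and 0.485, 0.671 and 1.2 under IL-4+IL-13, so the groups overlapped. It was lower under IL-4+IL-13 than in Vehicle in 6 of 6 batches, at a log2 fold change of -0.24 (-0.70 to 0.21) that did not pass (edgeR adjusted p = 0.786). Against TGF-β the difference was 0.40 in favour of TGF-β (-0.06 to 0.86, adjusted p = 0.514).

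P2RX5 had 4.29, 12.2 and 27.5 CPM in Vehicle, 3.39, 12.9 and 30.2 under TGF-β, 3.37, 10.99 and 22.6 under IL-6, and 3.34, 9.11 and 24.7 under IL-4+IL-13. Its values against Vehicle rested on the Vehicle library of batch 2, which stood at 21.02 CPM beside 6.60 for TGF-β, 4.23 for IL-6 and 6.14 for IL-4+IL-13 in the same batch. In batch 4 the Vehicle library was the lowest, at 13.5 CPM beside 19.6 to 27.6. The log2 fold change was -0.10 for TGF-β (-0.67 to 0.47), -0.43 for IL-6 (-1.001 to 0.15) and -0.41 for IL-4+IL-13 (-0.99 to 0.16). Without the Vehicle library of batch 2 these became 0.32, -0.019 and 0.022, and none passed in either case. TGF-β lay above IL-4+IL-13 in 6 of 6 batches, by 0.31 (-0.25 to 0.87, edgeR adjusted p = 0.766).

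P2RX6 gave the lowest unadjusted p of the members in the direct comparison of TGF-β with IL-4+IL-13. It was lower under TGF-β in 6 of 6 batches, at 1.88, 3.43 and 4.80 CPM against 2.45, 4.25 and 7.41 under IL-4+IL-13, and the ranges overlapped between batches. The log2 fold change was -0.43 (95% interval -0.78 to -0.08), which did not pass over all genes (edgeR adjusted p = 0.248, DESeq2 0.151). It passed only when both Vehicle libraries of batches 2 and 4 were left out, at -0.42 and an adjusted p of 0.0421, against 0.0537 without the batch 2 library alone and 0.202 without the batch 4 library alone. Of the 6 members 0 were called by edgeR, beside 2.98% of all genes, and 0 by DESeq2, beside 5.35%. An unadjusted p under 0.05 was seen for 1 of 6 members, beside 3598 of the 29377 genes tested. Vehicle held 2.77, 3.46 and 5.22 CPM of P2RX6 and IL-6 1.73, 3.47 and 5.68.

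P2RX4 differed little between treatments. Vehicle libraries had 6.74, 7.82 and 11.6 CPM, TGF-β 5.44, 7.54 and 10.8, IL-4+IL-13 7.50, 8.26 and 9.53, and IL-6 7.47, 9.24 and 10.4. All 4 intervals for its log2 fold changes lay between -0.38 and 0.33, the narrowest of the 6 genes.

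P2RX7, which opens at high ATP concentrations, was low and uneven, with 5 to 222 counts per library. It had 0.309, 1.22 and 5.69 CPM in Vehicle, 0.151, 0.540 and 1.97 under TGF-β, 0.410, 0.820 and 2.95 under IL-6, and 0.30, 1.05 and 2.95 under IL-4+IL-13. Its widest gap was in batch 4, where the count was 222 in Vehicle, 114 under IL-6, 30 under IL-4+IL-13 and 5 under TGF-β. The log2 fold change for TGF-β was -1.03 (-2.24 to 0.18, edgeR adjusted p = 0.783) against Vehicle, with TGF-β lower in 3 of 6 batches, and -0.49 without the Vehicle library of batch 4. Leaving out that library moved the value from -0.12 to 0.65 for IL-6 and from 0.051 to 0.60 for IL-4+IL-13, and none of these passed. Against IL-4+IL-13 it was -1.08 (-2.25 to 0.09, adjusted p = 0.470), with TGF-β lower in 5 of 6 batches. The cycling cell markers (MKI67, TOP2A and CCNB1) summed to 112 CPM in that Vehicle library, 85.9 under IL-6, 43.5 under IL-4+IL-13 and 45.4 under TGF-β, and their part in the P2RX7 values was not tested. In batch 2 the same sum was 51.9 in Vehicle, 288 under TGF-β, 337 under IL-6 and 398 under IL-4+IL-13. P2RX7 there stood at 1.89, 1.97, 2.84 and 2.83 CPM. As a description, Pearson's r of P2RX7 with the mean log2(CPM + 1) of the cycling markers was 0.73 over 24 libraries. With batch means taken out it was 0.55. For 6 skeletal muscle markers the same values were 0.72 and 0.59. These lists gave the highest r of all the marker lists compared. The others ranged from -0.54 (myeloid) to 0.48 (glia) over 24 libraries. With batch means taken out all the others were negative, from -0.56 (myeloid) to -0.06 (glia).

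**Figure D4:**
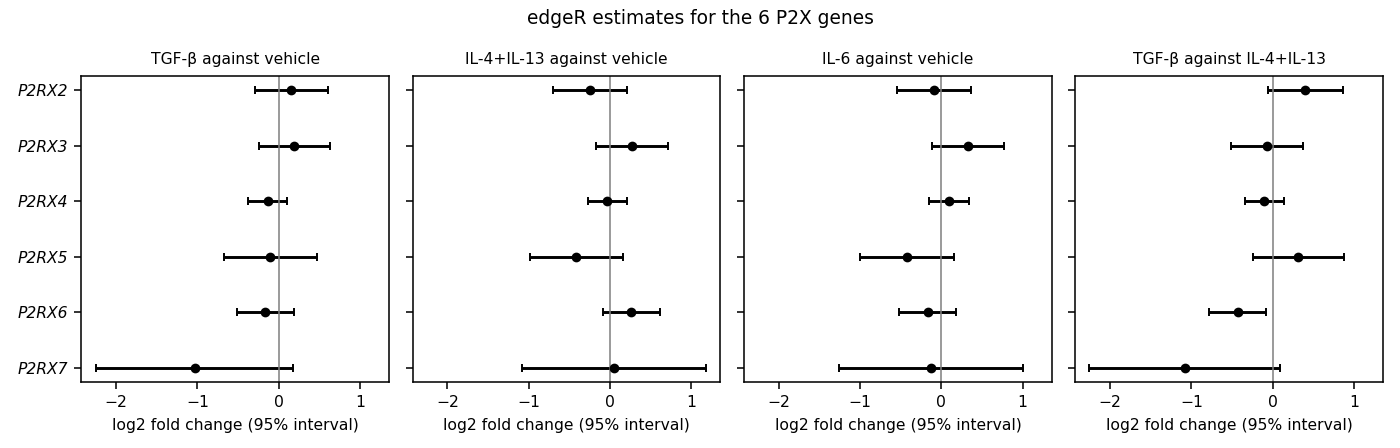
edgeR log2 fold changes of the 6 P2X genes with 95% intervals in the 4 comparisons, in a fit with batch over 24 libraries. Each interval includes 0 except that of P2RX6 for TGF-β against IL-4+IL-13 (-0.78 to -0.08), and the P2RX7 intervals are the widest.

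The genes whose pattern over the 24 libraries was most like that of each member were taken among 13293 genes with a mean of at least 50 counts, by Pearson's r of log2(CPM + 1), as a description. For P2RX3 they were AKR1C2, a steroid-reducing enzyme (r = 0.98), TMEM169 (0.96) and FUT1 (0.96). With batch means taken out they were NMNAT2, an enzyme of axonal NAD synthesis (0.94), PKIA (0.94) and DYNLL2 (0.93). For P2RX5 the overall list was the proteoglycan gene SDC3, MARCHF4 and FAM219A, each at 0.99, and the within-batch list was ACHE, which breaks down acetylcholine (0.99), CYGB (0.98) and FAM219A (0.98). P2RX4 was nearest to NFKBIE, PCYT1B and TRIP6, each at 0.89, and within batches to the lysosomal enzyme gene GUSB (0.90), AGTRAP (0.89) and AGPAT2 (0.87). P2RX6 was nearest to ST3GAL5 (0.88), RAB3IP (0.87) and MAGEH1 (0.87), and within batches to the chemokine gene CXCL16 (0.92), ADGRD1 (0.90) and IGSF1 (0.87). P2RX7 was nearest to NUP210 (0.93), TMPRSS5 (0.92) and the hexokinase gene HK2 (0.91), and within batches to WSCD2 (0.92), NDUFA4L2 (0.92) and TMPRSS5 (0.91). P2RX2, at the lowest counts, was nearest to SPEG (0.81), ADAM8 (0.79) and RD3 (0.78), and within batches to MMP9 (0.74), DZIP1L (0.73) and THEMIS2 (0.71). The SD of log2(CPM + 1) was 0.86 in batch 1 for P2RX3, against at most 0.34 in any other batch. For P2RX5 it was 0.90 in batch 2, against at most 0.41, and for P2RX7 1.14 in batch 4, against at most 0.58. Those batches weigh most in the within-batch r of P2RX3, P2RX5 and P2RX7.

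The other genes that handle extracellular nucleotides were taken from 5 lists with 35 genes, of which 32 could be tested. Under edgeR 0 of 32 passed for TGF-β, for IL-6 or for IL-4+IL-13 against Vehicle, beside 0.347%, 0% and 0.633% of all genes, with 2, 2 and 5 at an unadjusted p under 0.05. The unadjusted counts over all 29377 genes tested were 2141, 1400 and 2673. DESeq2 called 0, 0 and 1, beside 1.72%, 0.449% and 1.95% of all genes, the 1 being NT5E under IL-4+IL-13 (log2 fold change -0.80 and adjusted p 0.144 in edgeR, adjusted p 0.0178 in DESeq2). Between TGF-β and IL-4+IL-13, 3 of 32 passed in edgeR, beside 2.98% of all genes, all higher under TGF-β, and DESeq2 called 4, beside 5.35%.

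NT5E, the ecto-enzyme that turns AMP into adenosine, stood at 20.2 ± 7.49 CPM under IL-4+IL-13 and at 38.7 ± 13.2 under TGF-β (SD, n = 6), a log2 fold change of 0.94 for TGF-β over IL-4+IL-13 (SE 0.22, edgeR adjusted p = 0.0195) with TGF-β higher in 6 of 6 batches. Vehicle stood at 35.02 ± 15.3. ADA, which deaminates adenosine, was at 9.49 ± 2.17 against 15.7 ± 8.56 CPM (0.61, SE 0.15, adjusted p = 0.0302, higher under TGF-β in 6 of 6), with Vehicle at 13.99 ± 8.18. P2RY6, a receptor for UDP, was at 0.6245 ± 0.234 against 1.78 ± 1.04 CPM (1.37, SE 0.34, adjusted p = 0.0289, higher under TGF-β in 5 of 6), with Vehicle at 1.29 ± 0.652. NT5E passed in 10, ADA in 11 and P2RY6 in 9 of 16 alternative settings, with the same direction in all 16. Without batch in the model none of the 3 passed (edgeR adjusted p = 0.686, 0.970 and 0.543), nor did they in 18 libraries without IL-6 (0.0615, 0.0996 and 0.0909). The other losses came when 1 batch was left out, each of batches 3, 5 and 6 for all 3 genes, batch 1 for NT5E and P2RY6, and batch 4 for P2RY6, at adjusted p values of up to 0.112, 0.148 and 0.179.

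By list, 1 of 6 tested P2Y receptors passed in that comparison, 2 of 9 genes of ATP breakdown, 0 of 3 adenosine receptors, 0 of 10 genes of ATP release and 0 of 4 genes for proteins that bind or modulate P2X channels. The median log2 fold changes were 0.99, 0.45, 0.16, 0.052 and 0.046, beside -0.09 for the 6 P2X genes and -0.0048 over all genes. ADORA2B, an adenosine receptor, was lower under TGF-β in 6 of 6 batches at -0.56 (edgeR adjusted p = 0.0778, DESeq2 0.0203). Of the genes highest in Vehicle, GJA1 (connexin 43) stood at 384 ± 120 CPM, LRRC8A at 50.3 ± 10.8, ENTPD1, which breaks ATP down to AMP, at 41.1 ± 3.89, and the ATP-release channel PANX1 at 39.6 ± 6.44. None of these 4 passed in any treatment comparison, and the log2 fold changes of PANX1 and ENTPD1 lay between -0.04 and 0.13. ADORA1 at 15.9 ± 7.09 CPM was the highest adenosine receptor and P2RY1 at 4.12 ± 3.25 the highest P2Y receptor. APBB1 at 209 ± 53.6 and CASK at 195 ± 51.0 led the proteins reported to bind P2X subunits.

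**Figure D5:**
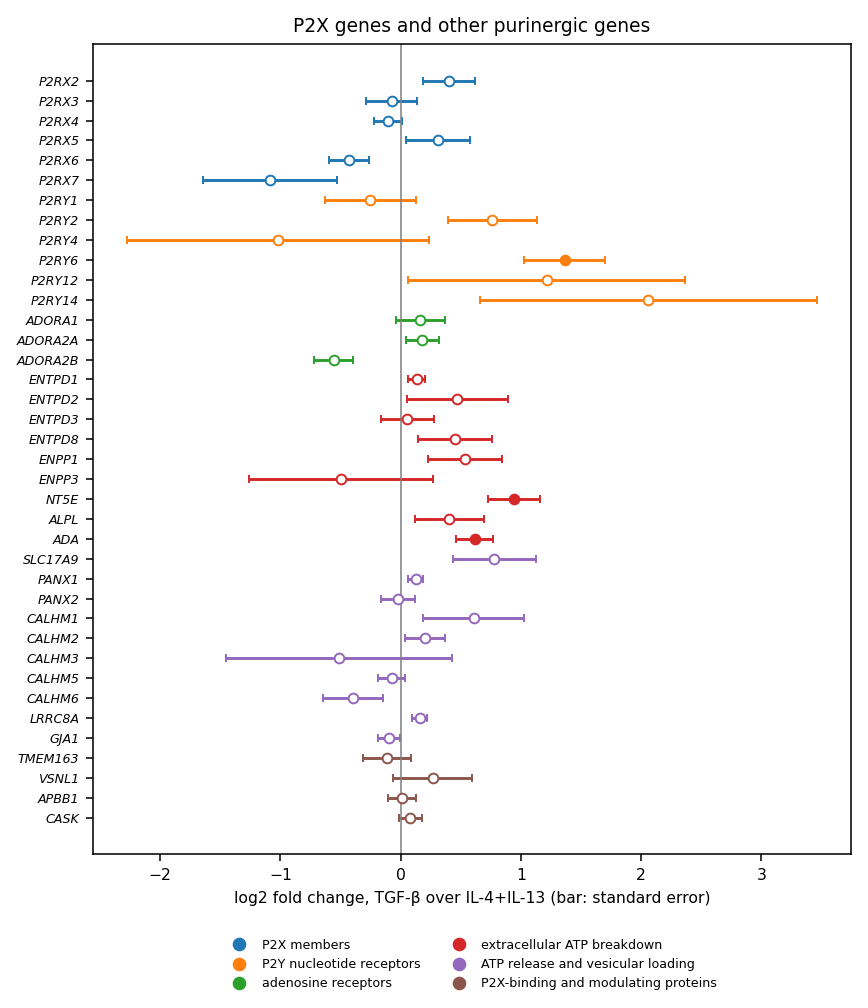
edgeR log2 fold change of TGF-β over IL-4+IL-13 for the 6 P2X genes and 32 other purinergic genes, with standard error bars and colours by list. Filled points passed an adjusted p of 0.05 (P2RY6, NT5E and ADA) and open points did not.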

How the data were processed

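The deposited values are raw counts of reads per gene, which the authors' sequencing provider made from polyA RNA. Reads were trimmed (Trimmomatic 0.30), then aligned against the GRCh38.p14 assembly. One label calls this human build a mouse reference. The aligner, the counter and the strandedness are not given in the sources used here, so antisense and overlapping genes may share reads. Of 36468 rows, 13161 are NewGene loci. Rows that share a symbol were kept apart.

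The members and gene lists were chosen with earlier results of these data known. Genes with under 10 counts in all were left out, which left 29377. edgeR 4.0.16 (TMM, robust quasi-likelihood test, model of batch and treatment, 24 libraries, Benjamini-Hochberg over all genes) was the main test and DESeq2 1.42.0 an alternative. The call was an adjusted p under 0.05. edgeR gives no standard error, so it was taken as the log2 fold change over the root of F, with a 95% interval from its degrees of freedom. The labels give the batch of each library, and same-batch pairs correlated at a median r of 0.73 with group means taken out (36 pairs). With 1 culture per batch and group, treatment p values measure how within-batch differences vary over these batches of 1 line. In the test between batches, the 4 differently treated cultures of a batch stood as its repeats.

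Gene lengths are the union of exons in GENCODE 44, which need not be the annotation the counts were made with. Levels were tested by exact sign-flip tests over 6 batches. Named genes were the 6 members, list genes that passed or were among the highest 3 of their list in Vehicle at a mean of 10 or more counts, markers beside a member, and the 3 genes most like each member. The script steps were tested on simulated data. Alternatives were another normalization, other filters, no batch term, 18 libraries, left-out batches and libraries, first rows of each symbol, pseudocounts of 0.5 and 1, other panels and other lengths. Leaving out the Vehicle library of batch 4, alone or with that of batch 2, also for P2RX3 against the neuron markers, was added after seeing the data.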

Additional observations from a re-analysis of the deposited data

Results flagged for a closer look

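The 6 libraries of each group and the 6 within-batch differences of each comparison were searched for a value far from the rest, in 48 sets, and chance flags about 1 in 20 sets. No group of libraries held one, and 5 sets of differences did, all on the log2(CPM + 1) scale. For P2RX3, batch 1 stood apart from the other batches at 1.52 for IL-4+IL-13 against Vehicle (next highest 0.15) and at 1.48 for IL-6 against Vehicle (next highest 0.31). For P2RX7, batch 4 stood apart at -2.54 for TGF-β against Vehicle (next lowest -0.72) and at -1.92 for IL-4+IL-13 against Vehicle (next lowest -0.0099). For P2RX5, batch 2 stood apart at -2.08 for IL-6 against Vehicle (next lowest -0.27). The P2RX5 and P2RX7 values share the Vehicle libraries of batches 2 and 4 that stood apart across all genes.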

How the results depend on the processing

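Counts of called members stayed at 0 for each cytokine against Vehicle in every alternative run, and at 0 for TGF-β against IL-4+IL-13 except that 1 (P2RX6) was called without the Vehicle libraries of batches 2 and 4. Between batches the count was 5 to 6 when a batch or library was left out. P2RX3 relative to the neuron markers kept its direction except for TGF-β against IL-4+IL-13, which ranged from -0.23 to 0.0023 when 1 batch was left out. In the other comparisons it moved by over 1.5 times without batch 2 (0.043 for TGF-β and 0.17 for IL-4+IL-13 against Vehicle) or without batch 1 (0.24 for IL-6, 0.17 for IL-4+IL-13) or batch 4 (0.25 for TGF-β). No neighbouring pair in the order of levels changed direction. None passed over 6 batches, and with 1 batch left out none could, since 5 batches allow no p below 0.0625.

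The log2 fold changes that changed sign were all short of the threshold, and the cause was not tested. Without the batch as a replicate block they were 0.14 for P2RX5 (TGF-β against Vehicle), -0.26 for P2RX7 (IL-4+IL-13 against Vehicle) and 0.020 for P2RX3 (TGF-β against IL-4+IL-13), and the block changed no call of a member. In 18 libraries P2RX7 gave -0.036 for IL-4+IL-13 against Vehicle. Leaving out batches or Vehicle libraries gave, for TGF-β against Vehicle, -0.30 to 0.32 for P2RX5 (0.18 without both Vehicle libraries) and -0.28 to 0.018 for P2RX6. For IL-4+IL-13 against Vehicle it gave -0.087 to 0.054 for P2RX4, -0.61 to 0.022 for P2RX5 and -0.17 to 0.74 for P2RX7. For IL-6 against Vehicle it gave -0.35 to 0.038 for P2RX2, -0.61 to 0.029 for P2RX5, -0.26 to 0.026 for P2RX6 and -0.41 to 0.65 for P2RX7 (0.59 without both Vehicle libraries). For TGF-β against IL-4+IL-13 it gave -0.26 to 0.19 for P2RX3. P2RX2 and P2RX7 are limited by counts as low as 13 and 5 per library.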
